A study of Mus musculus with 5 samples.

Results

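The cells described here are mesenchymal progenitors of resting mouse muscle that carry transcripts of Smoc2, Hmcn2 and Col15a1 together, and they are called triple-marker cells below. They were chosen by a rule on measured values in the muscle library. A kept cell had at least 500 detected genes and at most 10% of its unique molecular identifiers (UMIs, each standing for 1 captured transcript) from mitochondrial genes. A triple-marker cell had in addition at least 1 UMI of each of Smoc2, Hmcn2 and Col15a1, fewer than 5 Rgs5 UMIs per 10000, fewer than 20 Lpl UMIs per 10000, and at most 2 of the 5 genes Dpp4, Pi16, Cd55, Smpd3 and Efhd1 detected. The rule took 2132 of 8107 kept muscle cells, which is 26.3% (exact binomial 95% interval 25.3 to 27.3). Across all 5 libraries of the series 37519 cells were kept.

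The muscle library held tdTomato-positive cells sorted from hindlimb muscle of C57BL/6J mice of genotype Hic1CreERT2/CreERT2;Rosa26LSLtdTomato/+. In these animals a tamoxifen-dependent Cre recombinase made from the Hic1 locus switches on the red reporter tdTomato, so every sorted cell descends from a cell that had used Hic1. Each of the 4 sarcoma libraries came from the reporter-positive fraction of an epithelioid sarcoma in C57BL/6J mice of genotype Hic1CreERT2/CreERT2;Rosa26LSLtdTomato/LSLtdTomato;Smarcb1FL/FL, grown at the shoulder, head, head/ear or hip. Both copies of Hic1 carry the Cre in every library, controls included. Tamoxifen began at 8 weeks of age in all mice, as a daily dose of 2.5 mg (100 µL of sunflower oil) for 5 days, and 10 days of washout followed. There is 1 muscle library, so comparisons among its cells carry no test. Intervals given for levels and shares cover counting error only.

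Muscle mesenchymal progenitors, often called fibro-adipogenic progenitors, lie between muscle fibres and around vessels. They make the matrix that fibres rest on and secrete factors that act on muscle stem cells and immune cells, and after injury or in disease they can give rise to fibroblasts and fat cells. A pair of broad states are commonly described, one with Dpp4 and Pi16 that resembles fascia and adventitial fibroblasts, and one closer to fibres and capillaries with high Lpl, Cxcl14 and Smoc2. Smoc2 encodes a secreted calcium-binding matrix protein, Hmcn2 encodes hemicentin 2, a very large matrix protein, and Col15a1 encodes the collagen found at the outer face of basement membranes.

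The library of 8658 barcodes held 64061069 UMIs, and 551 barcodes were removed by the filter. The median triple-marker cell held 7872.5 UMIs and 2786 detected genes, against 7414 UMIs and 2635 genes in all other kept muscle cells. Mitochondrial genes gave a median of 2.41% of UMIs in triple-marker cells and 2.51% in the others. Of the barcodes of triple-marker cells, 7, 6, 2 and 2 also occurred in sarcomas 1 to 4.

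The other kept muscle cells fell into 4 sets under the same rule. Cells with low Rgs5 and 3 or more of Dpp4, Pi16, Cd55, Smpd3 and Efhd1, called Dpp4-set cells below, numbered 3077 (38.0%). Cells that met the limits on these genes but had 20 or more Lpl UMIs per 10000, called Lpl-high cells, numbered 565 (6.97%). A further 1580 cells (19.5%) met every limit but lacked at least 1 of the 3 markers. The last 753 cells (9.29%) had 5 or more Rgs5 UMIs per 10000, a gene of pericytes and other mural cells that wrap vessels.

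The label of progenitor was set beside 15 progenitor genes. All 2132 triple-marker cells had 3 or more of them, and the median cell had 14. So did 99.7% of all other kept cells, with a median of 14, and 97.6% of Rgs5-high cells, with a median of 6. Having 3 or more of these genes therefore does not set progenitors apart from the other cells. Pdgfra, the receptor that defines these progenitors in muscle, stood at 533 CPM (the summed UMIs of a gene in a set of cells per 1000000 summed UMIs of that set) in triple-marker cells (95% Poisson interval 522 to 544). It stood at 405 CPM in Dpp4-set cells, 575 CPM in Lpl-high cells and 81.5 CPM in Rgs5-high cells. Dcn, the matrix proteoglycan decorin, stood at 24111 CPM in triple-marker cells against 14173 CPM in all other kept cells. The lineage reporter tdTomato was at 1088 CPM in triple-marker cells and 1156 CPM in the others, and Hic1 was at 55.0 and 46.6 CPM. Smarcb1, the chromatin remodelling subunit that is floxed in the sarcoma mice, was at 92.6 CPM (88.1 to 97.4) in triple-marker cells and 87.2 CPM (84.6 to 90.0) in the others.

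The 3 markers alone do not set these cells apart. At least 1 UMI of all 3 was found in 1332 of 3077 Dpp4-set cells (43.3%), in 338 of 565 Lpl-high cells (59.8%) and in 42 of 753 Rgs5-high cells (5.58%). The median triple-marker cell held 28 UMIs of Smoc2 (range 1 to 211), 6 of Hmcn2 and 6 of Col15a1. Smoc2 stood at 4371 CPM in triple-marker cells, 1593 in Dpp4-set cells, 3714 in Lpl-high cells, 656 in marker-missing cells and 413 in Rgs5-high cells. Hmcn2 stood at 915 CPM in triple-marker cells, 363 in Dpp4-set cells, 435 in Lpl-high cells, 107 in marker-missing cells and 110 in Rgs5-high cells. Col15a1 stood at 1004 CPM in triple-marker cells, 383 in Dpp4-set cells, 1041 in Lpl-high cells, 275 in marker-missing cells and 294 in Rgs5-high cells. Smoc2 and Col15a1 were thus shared with Lpl-high cells, while Hmcn2 was higher in triple-marker cells than in any of the 4 other sets. These 3 levels are set in part by the rule and are a description only.

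The genes that the rule limits were still present. Lpl, the lipoprotein lipase, was detected in 91.9% of triple-marker cells, Cd55 in 49.9%, Pi16 in 48.1%, Dpp4 in 11.3%, Efhd1 in 9.85%, Rgs5 in 5.82% and Smpd3 in 3.94%. At the limits of the rule, values changed by degrees. The 899 triple-marker cells with 2 detected genes of the Dpp4 set had Cxcl14 at 2251 CPM, and 671 cells just outside with 3 such genes, all 3 markers and low Lpl had it at 1104 CPM. The 254 triple-marker cells with 15 to 20 Lpl UMIs per 10000 had Apoe at 1497 CPM, and the 168 cells with all 3 markers and 20 to 25 had it at 2380 CPM. The 691 cells with only 2 of the 3 markers had Hsd11b1 at 66.5 CPM. Only 9 triple-marker cells had exactly 1 UMI of every marker, and 124 had a UMI of Rgs5.

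Smoc2 (ENSMUSG00000023886) lies on the plus strand at chr17:14279506-14404790 of mm10, Hmcn2 (ENSMUSG00000055632) on the plus strand at chr2:31314415-31460738 and Col15a1 (ENSMUSG00000028339) on the plus strand at chr4:47208161-47313167. Cxcl14 (ENSMUSG00000021508) lies on the minus strand at chr13:56288643-56296551 and Hsd11b1 (ENSMUSG00000016194) on the minus strand at chr1:193221634-193264075. All 5 are annotated as protein-coding in GENCODE M21. The start regions of 5 genes that describe these cells are printed here because Hmcn2 and Col15a1 chose the cells and Cxcl14, Crispld2 and Adamtsl2 were among the genes highest in them. Each line gives the 150 bases before the RefSeq start (build GRCm38.p6), 5′ to 3′ on the strand of the gene, with any match to a searched motif in capitals.
Hmcn2, chr2:31314182-31314331, plus strand: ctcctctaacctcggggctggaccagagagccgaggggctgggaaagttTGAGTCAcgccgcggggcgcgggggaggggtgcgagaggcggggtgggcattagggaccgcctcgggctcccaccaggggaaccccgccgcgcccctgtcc
Col15a1, chr4:47207862-47208011, plus strand: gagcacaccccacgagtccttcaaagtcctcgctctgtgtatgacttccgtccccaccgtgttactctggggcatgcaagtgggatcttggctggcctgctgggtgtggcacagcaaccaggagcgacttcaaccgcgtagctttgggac
Cxcl14, chr13:56296552-56296701, minus strand: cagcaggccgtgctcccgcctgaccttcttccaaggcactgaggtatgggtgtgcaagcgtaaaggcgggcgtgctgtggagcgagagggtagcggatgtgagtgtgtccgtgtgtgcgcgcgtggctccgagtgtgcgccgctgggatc
Crispld2, chr8:119992288-119992437, plus strand: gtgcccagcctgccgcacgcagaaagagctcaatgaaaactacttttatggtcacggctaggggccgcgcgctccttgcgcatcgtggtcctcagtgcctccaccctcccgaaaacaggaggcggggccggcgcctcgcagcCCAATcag
Adamtsl2, chr2:27079229-27079378, plus strand: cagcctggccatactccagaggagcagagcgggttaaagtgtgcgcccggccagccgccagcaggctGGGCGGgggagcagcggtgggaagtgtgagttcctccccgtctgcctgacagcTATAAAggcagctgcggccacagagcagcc
Motifs were searched on both strands in the 250 bases before the start. The TATA box TATAAA occurred in 14.3% of 27025 genes in the table, CCAAT in 37.5%, the GC box GGGCGG in 35.4% and the AP-1 site TGANTCA in 7.82%. Adamtsl2 has TATAAA 30 bases and GGGCGG 83 bases before its start, Crispld2 has CCAAT 8 bases before, and Hmcn2 has TGANTCA 101 bases before. The printed bases of Col15a1 and Cxcl14 hold none of these 4 motifs. Among the 98 genes with an entry that were at least 2-fold higher in triple-marker than in Dpp4-set cells, 12.2% held TATAAA, against 7.93% of 4970 tested genes with an entry. The same shares were 26.5% and 39.7% for CCAAT, 62.2% and 68.1% for GGGCGG, and 9.18% and 5.45% for TGANTCA. The glucocorticoid response element, searched as its palindromic consensus, was found in 0 of the 98 genes and in 0.241% of the tested genes. A match is a stretch of letters and not a shown binding site.

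Cxcl14, Hsd11b1 and Adamtsl2 were among the genes highest in triple-marker cells against all other kept muscle cells. Of 6446 genes with 20 CPM or more in either group, leaving out the 10 genes of the rule, 55 (0.853%) were at least 2-fold higher in triple-marker cells and 209 (3.24%) at least 2-fold lower. When every cell was thinned to 2000 UMIs before the rule, 66 genes were higher, 33 of the 55 among them, and 255 lower, 176 of the 209 among them. By list, 1 of 35 growth factors and antagonists, 1 of 33 receptors and 1 of 16 chemokines and cytokines were at least 2-fold higher, and 5, 2 and 3 at least 2-fold lower. Cxcl14, a chemokine made by fibroblasts, stood at 2876 CPM (2850 to 2902) against 863 CPM (855 to 872), a ratio of 3.33. Hsd11b1, the enzyme that regenerates active glucocorticoid inside the cell, stood at 283 CPM (275 to 291) against 83.5 CPM (80.9 to 86.1), a ratio of 3.39. Adamtsl2, a matrix glycoprotein that binds fibrillin and latent TGF-beta, had the highest ratio, 3.66, at 59.4 CPM against 16.2 CPM.

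Among the other genes with the highest ratios, several code for proteins of the cell surface. Mme, the peptidase neprilysin, stood at 165 CPM against 56.5 CPM. Gfra1, the receptor that binds GDNF, stood at 110 CPM against 43.4 CPM. Kcnk2, the stretch-sensitive potassium channel TREK-1, stood at 100.1 CPM against 34.0 CPM. P2ry1, a receptor for ADP, stood at 64.4 CPM against 23.2 CPM, and Lrrtm3, a leucine-rich repeat membrane protein, at 77.9 CPM against 25.5 CPM. Cldn15, a claudin of tight junctions, stood at 83.5 CPM against 31.5 CPM, and Clec14a, a C-type lectin domain protein better known from endothelium, at 92.1 CPM against 34.7 CPM. Among secreted proteins, Bmp4, a bone morphogenetic protein, stood at 139 CPM against 51.5 CPM, Vwa1, a matrix protein that binds perlecan, at 243 CPM against 90.2 CPM, and Crispld2 at 456 CPM against 156 CPM. Gm266, a gene with no established function, stood at 50.5 CPM against 17.4 CPM.

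Among the 15 genes with the lowest ratios were markers of other cell types of the sort. The rule puts Rgs5-high cells and marker-missing cells in the compared group. The latter hold 447 of the 492 cells of cluster 7, led by tendon genes in the clustering below. Genes of mural and tendon cells were therefore bound to be lower here. Kcnj8 and Abcc9, which form the potassium channel of pericytes, stood at 1.93 and 3.01 CPM against 135 and 92.0 CPM in all other kept cells. Acta2 and Tagln, of smooth muscle, stood at 9.76 and 12.5 CPM against 163 and 133 CPM. Scx and Kera, of tendon cells, stood at 4.82 and 11.8 CPM against 80.9 and 125 CPM. Postn, a matrix protein of activated fibroblasts, stood at 34.4 CPM against 326 CPM. Fabp4, the fatty acid binding protein of fat and capillary cells, stood at 9.21 CPM against 164 CPM. Restricting the comparison to cells with a Pdgfra UMI and low Rgs5 gave 136 genes at least 2-fold lower in triple-marker cells, of which 118 were among the 209, and 60 at least 2-fold higher, of which 38 were among the 55.

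The share of cells with a transcript followed the same order when each cell was thinned to 2000 UMIs, which left out 35 triple-marker cells and 45, 22, 147 and 135 cells of the Dpp4-set, Lpl-high, marker-missing and Rgs5-high sets. Cxcl14 was then found in 66.0% of triple-marker cells (63.9 to 68.0), 80.5% of Lpl-high cells, 17.97% of Dpp4-set cells and 9.87% of Rgs5-high cells. Before thinning the 4 shares were 75.5%, 87.3%, 30% and 14.3%. Hsd11b1 was found after thinning in 38.1% of triple-marker cells, 33.1% of Lpl-high cells, 10.6% of Dpp4-set cells and 2.59% of Rgs5-high cells, and before thinning in 64.0%, 54.0%, 28.6% and 5.05%. For comparison, 38 kept cells outside the triple-marker set with 3 or more glial markers had a median of 8510 UMIs. They showed Cxcl14 in 23.7% after thinning (11.4 to 40.2, and 44.7% before) and Hsd11b1 in 0 of 38 (13.2% before). They are not a clean background, since 22 of the 38 held Smoc2, 22 held Col15a1 and 7 were Dpp4-set cells. The Cxcl14 shares of Dpp4-set and Rgs5-high cells lay at or below that of the glial-marker cells and are not read as expression per cell. Those of triple-marker and Lpl-high cells lay above it. The comparison group leaves out the 7 triple-marker cells that held 3 or more glial markers, so it is not a full background for that set.

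**Figure D1:**
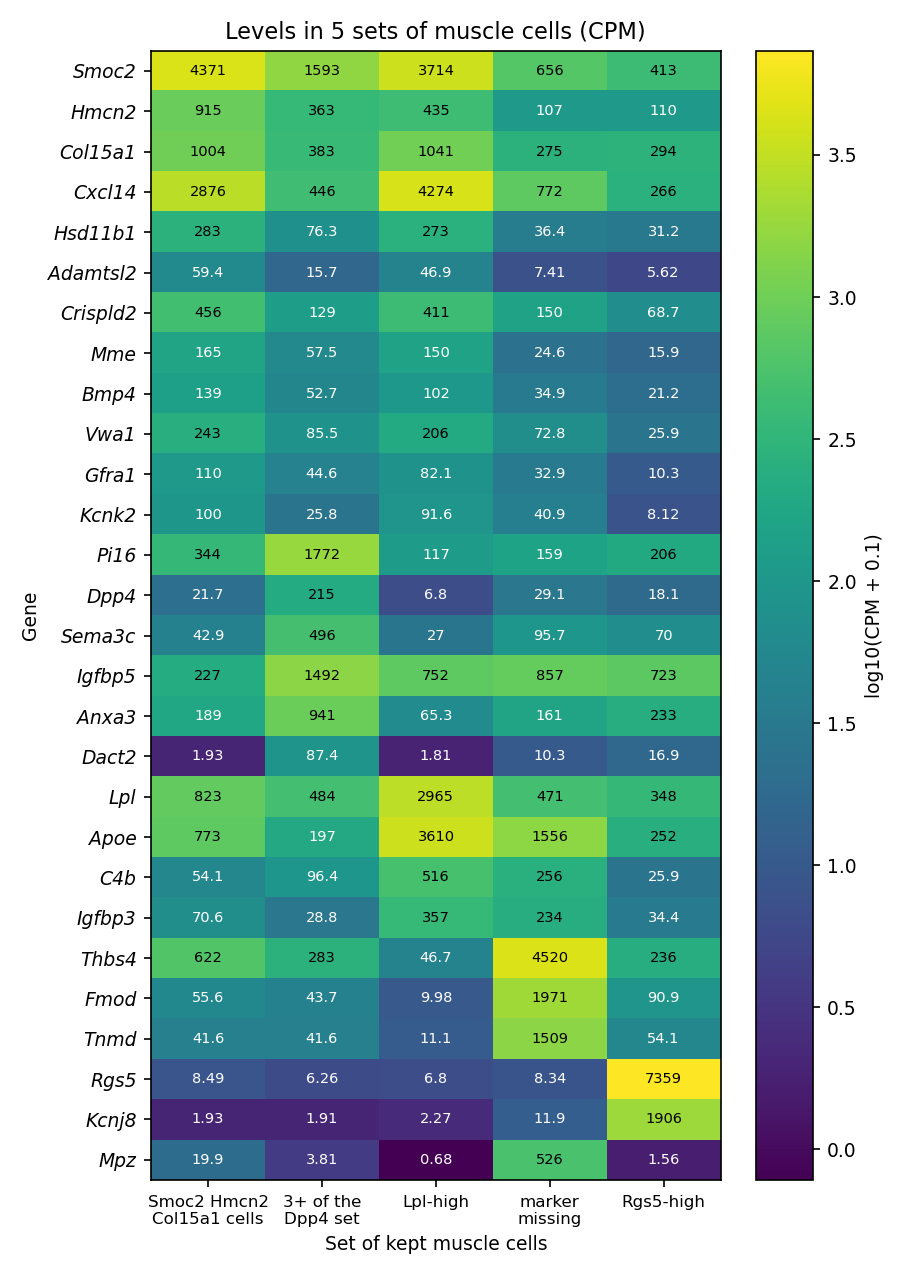
Levels of 28 genes (rows) in the 5 sets of kept muscle cells (columns), printed as CPM and coloured by log10 of CPM plus 0.1. Cxcl14, Hsd11b1 and Mme are high in both the triple-marker and the Lpl-high columns, whereas Hmcn2 is highest in triple-marker cells at 915 CPM and Apoe is highest in Lpl-high cells at 3610 CPM.

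Beside the Dpp4-set cells, the difference was wider. Of 6391 genes tested, 149 (2.33%) were at least 2-fold higher in triple-marker cells and 181 (2.83%) at least 2-fold lower. Cxcl14 led with 2876 CPM against 446 CPM, a ratio of 6.45 (6.32 to 6.57). The interval covers counting error only, and the ratio was 21.5 when cells were thinned before the rule. Over the alternatives run, the ratio ranged from 3.66 to 9.52 for Hsd11b1 and from 3.63 to 8.95 for Apoe. Fbln7, a fibulin of the extracellular matrix, stood at 172 CPM against 39.3 CPM, and Sept4, a septin of the cytoskeleton, at 67.3 CPM against 13.1 CPM. Apoe, the apolipoprotein that carries lipid out of cells, stood at 773 CPM against 197 CPM. Meox1, a homeobox factor of the somite lineage, stood at 80.6 CPM against 21.8 CPM, and Mdk, the growth factor midkine, at 114 CPM against 31.4 CPM.

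In the other direction, Dact2, an inhibitor of TGF-beta and WNT signalling, stood at 1.93 CPM in triple-marker cells against 87.4 CPM in Dpp4-set cells. Sema3c, a secreted guidance protein, stood at 42.9 CPM (39.8 to 46.2) against 496 CPM (487 to 504). Igfbp5, which binds insulin-like growth factors, stood at 227 CPM against 1492 CPM, and Efemp1, the elastic-fibre protein fibulin 3, at 98.2 CPM against 623 CPM. Stmn4, Rorb, Car8 and Cmah were each at 6.50 CPM or less in triple-marker cells and at 62.3 CPM or more in Dpp4-set cells. Wnt2, a WNT ligand, stood at 0.903 CPM against 30.5 CPM, and Aldh1a3, which makes retinoic acid, at 10.2 CPM against 67.8 CPM. The rule caps 5 genes of the Dpp4 state, so genes that vary with those 5 were bound to differ here. A list of 34 further genes of that state, drawn up with earlier results known, had 26 at least 2-fold lower and 0 at least 2-fold higher in triple-marker cells, with a median ratio of 0.242, where the median over all tested genes was -0.01 on the log2 scale.

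**Figure D2:**
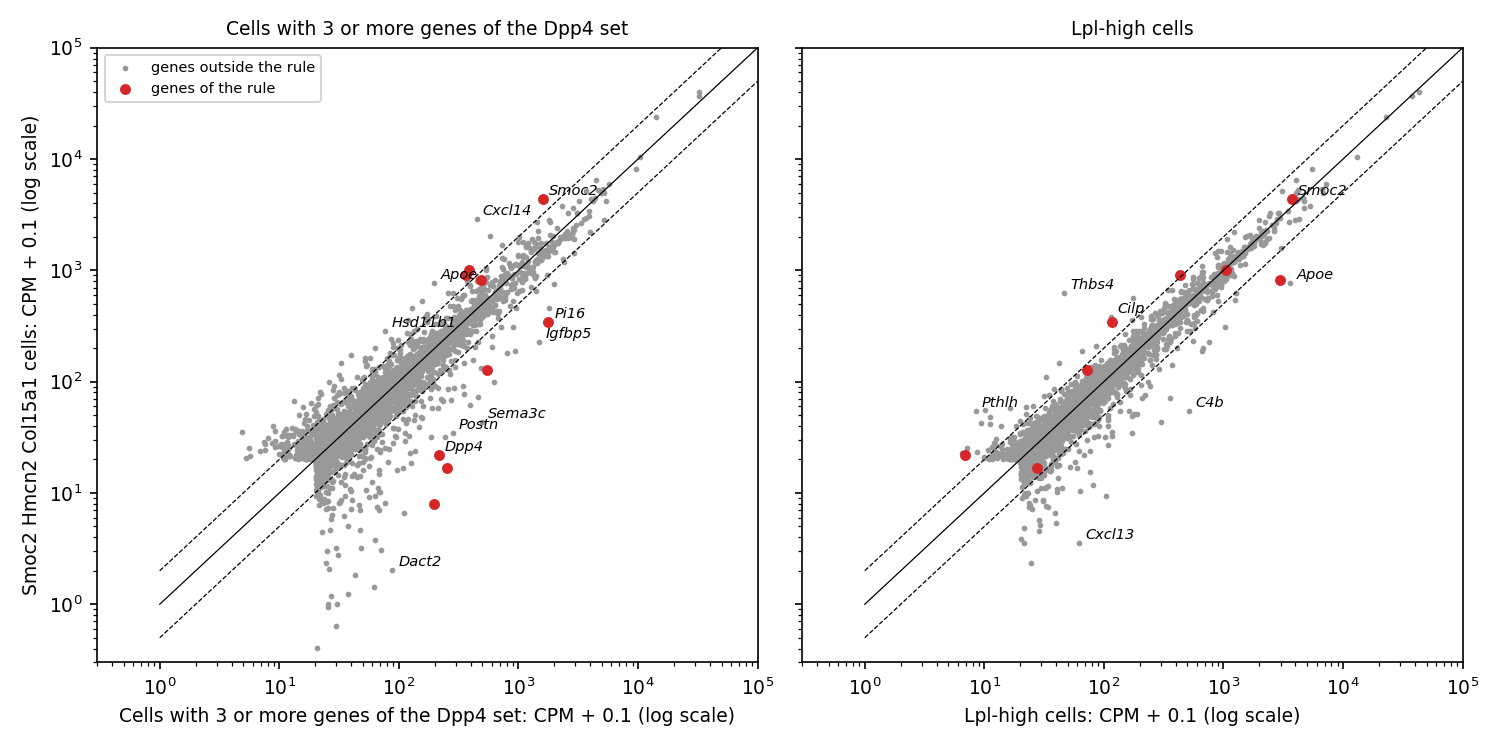
Each point is a gene, placed by its level in triple-marker cells (vertical axis) and in Dpp4-set cells (left panel) or Lpl-high cells (right panel), as CPM plus 0.1 on log axes, with a solid line at equality and dashed lines at 2-fold. Cxcl14 stands above the line on the left at 2876 against 446 CPM and Thbs4 on the right at 622 against 46.7 CPM, and fewer genes lie past the dashed lines on the right.

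Basement membrane genes were mostly higher in triple-marker cells than in Dpp4-set cells. These proteins form the thin sheet around fibres and vessels to which collagen XV is attached. Of 36 genes in the list, 3 are genes of the rule and were left out, and 18 of the others reached 20 CPM. The rule asks for Smoc2, Hmcn2 and Col15a1, which Dpp4-set cells need not hold. Genes that vary with these markers were therefore bound to be higher here. Of these 18, 4 were at least 2-fold higher and 0 at least 2-fold lower, with a median ratio of 1.72. At any ratio 13 of the 18 were higher, against 48.3% of all tested genes. Col4a1 and Col4a2, the main collagen IV chains, stood at 1799 and 832 CPM against 999 and 458 CPM. Col4a3, a minor collagen IV chain, stood at 21.6 CPM against 5.62 CPM. Nid2, which links laminin to collagen IV, stood at 235 CPM against 97.5 CPM, while its relative Nid1 stood at 1074 CPM against 1336 CPM. The laminin genes Lama2 and Lamb1 stood at 479 and 601 CPM against 285 and 345 CPM, and Hspg2, perlecan, at 1303 CPM against 734 CPM. Ntn4, a netrin of basement membranes, stood at 62.6 CPM against 122 CPM. Against Lpl-high cells the median ratio of the same list was 0.957, with 0 genes higher and 1 lower at 2-fold.

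Fibrillar matrix did not follow basement membrane. Col1a1 and Col3a1 stood at 4980 and 10442 CPM in triple-marker cells and at 4916 and 10429 CPM in Dpp4-set cells. Of 23 fibrillar matrix genes tested, 0 were at least 2-fold higher and 3 were at least 2-fold lower, with a median ratio of 1.01. Postn, Fn1 and Col14a1 were the 3, and Fn1, fibronectin, stood at 459 CPM against 1788 CPM. Elastic-fibre genes split, with 4 of 20 at least 2-fold higher and 4 at least 2-fold lower. Fbln7 and Mfap4 were among the former and Fbn1, Emilin2 and Efemp1 among the latter, and Mfap4, a microfibril-associated glycoprotein, stood at 357 CPM against 118 CPM. Among small leucine-rich proteoglycans, which coat collagen fibrils, 1 of 10 was at least 2-fold higher and 1 at least 2-fold lower. Podn stood at 275 CPM against 116 CPM, Aspn at 91.1 CPM against 344 CPM and Lum, lumican, at 2737 CPM against 1428 CPM.

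Genes of glucocorticoid and retinoid handling had a median ratio of 1.43 against Dpp4-set cells, with 4 of 17 at least 2-fold higher and 1 lower. Hsd11b1 stood at 283 CPM against 76.3 CPM and its partner H6pd, which supplies its cofactor and is not on the list, at 48.8 CPM against 20.9 CPM. Adh1, an alcohol dehydrogenase that can oxidise retinol, stood at 111 CPM against 51.2 CPM. Nr3c1, the glucocorticoid receptor, was at 216 CPM against 215 CPM, and its target Tsc22d3 was at 1058 CPM against 535 CPM. Against Lpl-high cells the median ratio of the same list was 0.960, with 1 of 17 genes higher and 1 lower at 2-fold. Among growth factors and their antagonists, 6 of 34 were at least 2-fold higher than in Dpp4-set cells and 4 at least 2-fold lower. Mdk, Gdf10, Bmp4, Wisp2, Bmp5 and Ntf3 made up the 6, and Bmp4 stood at 139 CPM against 52.7 CPM. Gdf10 was uneven among triple-marker cells, at 317 CPM in the 108 of cluster 2 and 92.4 CPM in the 257 of cluster 3. It was at 13.7 CPM or less in those of clusters 0, 1, 8 and 10 of the clustering below. Fgf1, Fgf2, Nov and Fstl1 made up the 4, and Fstl1, a follistatin-like protein, stood at 1184 CPM against 2406 CPM.

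These counts by list stand beside 2.33% higher and 2.83% lower over all genes tested. Those of receptors and transcription factors rest on few genes and are not read as a result about either list. Among 31 receptors, F2r, Gfra1 and Ptgfr were at least 2-fold higher in triple-marker than in Dpp4-set cells, and Thbd and Tgfbr2 at least 2-fold lower. Gfra1 stood at 110 CPM against 44.6 CPM, whereas Ret, the kinase that signals with it, stood at 86.5 CPM against 70.0 CPM. Tgfbr2, a TGF-beta receptor chain, stood at 117 CPM against 266 CPM. Of 59 transcription factors 3 were at least 2-fold higher and 3 at least 2-fold lower. Meox1, Heyl and Etv1 were higher, Osr2, Maf and Creb5 lower, and Creb5 stood at 156 CPM against 421 CPM. Ebf1, a factor of progenitor and fat lineages, stood at 882 CPM against 1347 CPM. Hoxc10, a Hox gene of the hindlimb, stood at 73.1 CPM against 62.4 CPM. Of 7 cell cycle genes above the minimum 0 were at least 2-fold higher and 1, Ccnd1, was lower at 10.1 CPM against 24.4 CPM. Cdkn1c, an inhibitor of the cell cycle found in quiescent cells, stood at 234 CPM against 156 CPM.

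Genes that accompany Lpl and Apoe lay between the levels of the Dpp4-set and Lpl-high cells. The rule caps Lpl, so genes that vary with it were bound to be lower than in Lpl-high cells. This list, too, was drawn up with earlier results known. Of 19 such genes outside the rule, 9 were at least 2-fold higher in triple-marker than in Dpp4-set cells and 1, Ptx3, was lower, with a median ratio of 1.96, while against Lpl-high cells 0 were higher and 6 lower, with a median ratio of 0.728. Mgp, an inhibitor of calcification, stood at 2024 CPM against 581 CPM in Dpp4-set cells, and Apod, a lipid carrier, at 620 CPM against 256 CPM. Among growth-factor binding proteins and proteases, 6 of 31 were at least 2-fold higher than in Dpp4-set cells and 3 lower. Igfbp7, which binds insulin-like growth factors, stood at 1697 CPM against 725 CPM, and Pappa, a protease that cleaves such binding proteins, at 36.3 CPM against 9.09 CPM. Among WNT modulators and targets, Sfrp1 and Ror1 were the 2 of 14 at least 2-fold higher, and Sfrp2, Sfrp4, Wnt2 and Ror2 the 4 lower. Sfrp4, a secreted WNT antagonist, stood at 47.7 CPM against 154 CPM. Among 13 chemokines and cytokines, Cxcl14 and Cxcl16 were higher and Il33, an alarmin, lower at 60.5 CPM against 159 CPM. Complement genes gave 1 of 8 higher and 1, C3, lower, and lipid genes 3 of 22 higher and 2 lower.

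**Figure D3:**
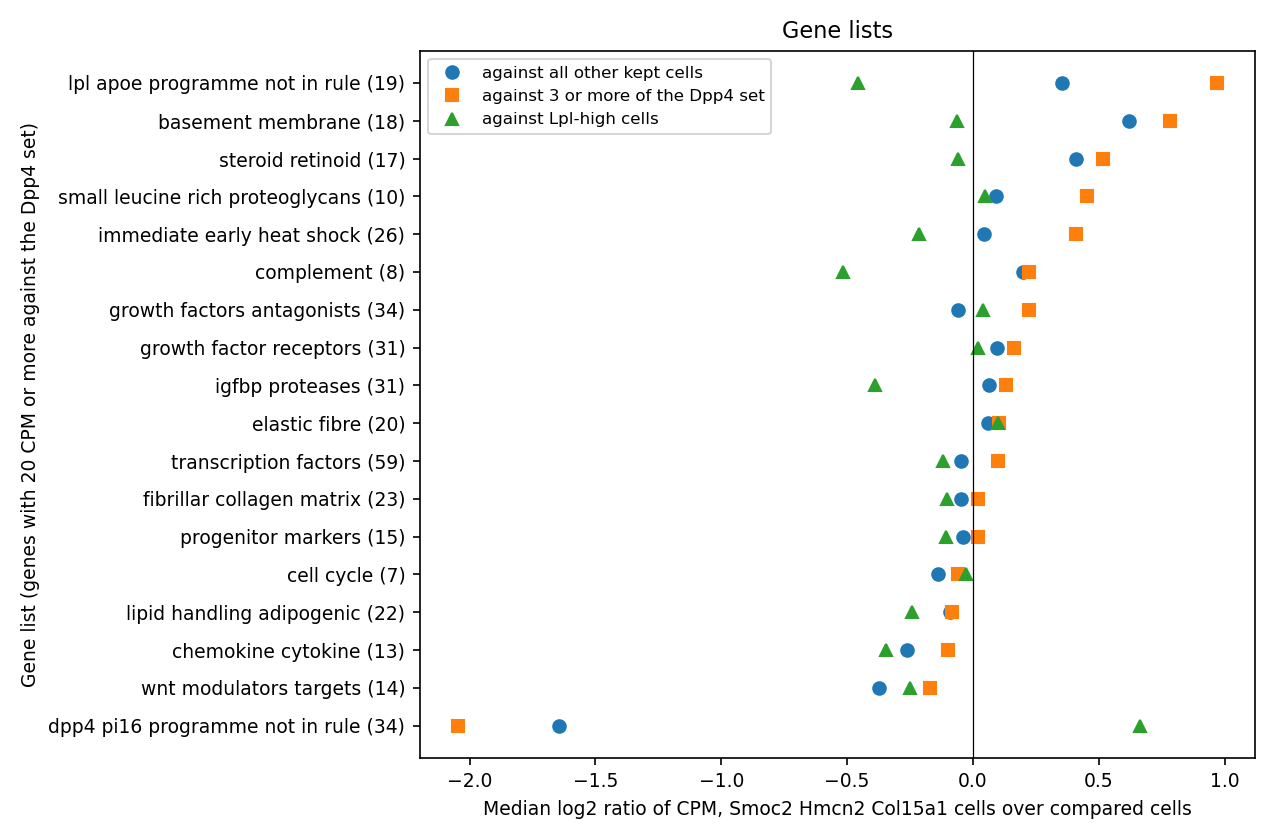
Median log2 ratio of CPM of each gene list (rows, with the number of genes at 20 CPM or more against Dpp4-set cells in brackets), for triple-marker cells over all other kept cells (circles), Dpp4-set cells (squares) and Lpl-high cells (triangles). The basement membrane list lies at 0.78 against Dpp4-set cells and at -0.06 against Lpl-high cells.

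Fewer genes passed 2-fold against Lpl-high cells than against Dpp4-set cells, and no such count was made for the marker-missing and Rgs5-high sets. Of 6369 genes tested, 34 (0.534%) were at least 2-fold higher in triple-marker cells and 99 (1.55%) at least 2-fold lower. With thinning before the rule 23 were higher, only 14 of the 34 among them, and 93 lower, 71 of the 99 among them. Hsd11b1 stood at 283 CPM against 273 CPM, a ratio of 1.04 (0.973 to 1.11), and Nid2 at 235 CPM against 237 CPM, a ratio of 0.992 (0.926 to 1.06). Mme stood at 165 CPM against 150 CPM. Cxcl14 was higher in Lpl-high cells, at 4274 CPM against 2876 CPM. The rule splits these sets by Lpl, whose levels were 823 and 2965 CPM.

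Genes lower in triple-marker than in Lpl-high cells included some of lipid transport, complement and inflammation. Of the 565 Lpl-high cells, 234 fell in cluster 2 of the clustering below, against 108 of the 2132 triple-marker cells. C4b, Mmp3, Cxcl13, C2 and Apoe were among the genes that led that cluster. The triple-marker cells within it had C4b at 773 CPM. The part of this mix in the values here was not tested. Apoe stood at 773 CPM (759 to 786) against 3610 CPM (3554 to 3666), a ratio of 0.214. C4b, a complement component, stood at 54.1 CPM against 516 CPM, a value that may include reads of its near-identical copy C4a. C3 stood at 309 CPM against 1033 CPM and C2 at 15.4 CPM against 77.1 CPM, and 4 of 9 complement genes were at least 2-fold lower with 0 higher. Mmp3, a matrix protease, stood at 43.1 CPM against 298 CPM, Igfbp3 at 70.6 CPM against 357 CPM and Cxcl13, a B-cell chemokine, at 3.43 CPM against 62.4 CPM. Fabp4 stood at 9.21 CPM against 105 CPM, and of 25 lipid and fat-cell genes 7 were at least 2-fold lower and 0 higher. Fst, follistatin, which antagonises activin and myostatin, stood at 201 CPM against 668 CPM, and Fgf10 at 4.46 CPM against 28.8 CPM.

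Genes higher in triple-marker than in Lpl-high cells included several known from tendon and fascia. Thbs4, a thrombospondin of tendon and muscle matrix, stood at 622 CPM (610 to 634) against 46.7 CPM (40.5 to 53.5), a ratio of 13.3 (11.6 to 15.4). Marker-missing cells had it at 4520 CPM. The ratio depended on how the rule met depth, since it was 1.89 when every cell was thinned to 2000 UMIs before the rule and 6.60 when separate random parts of the UMIs chose the cells and gave the levels. Cilp, a cartilage and tendon matrix protein, stood at 382 CPM against 115 CPM and Ctgf, a target of mechanical signalling, at 565 CPM against 174 CPM. Pthlh, the parathyroid hormone-like peptide, stood at 54.6 CPM against 8.39 CPM. Prg4, lubricin, stood at 58.4 CPM against 16.3 CPM and Fmod, fibromodulin, at 55.6 CPM against 9.98 CPM. Of 923 Fmod UMIs in triple-marker cells, 667 came from the 18 cells that fell in cluster 7 of the clustering below, which was led by tendon genes. Without those 18 cells, an alternative chosen after the data were seen, Fmod stood at 15.6 CPM, a ratio of 1.56, while Thbs4 stood at 557 CPM, a ratio of 11.9, and Prg4 at 54.5 CPM, a ratio of 3.34. Anxa3, an annexin high in Dpp4-set cells at 941 CPM, stood at 189 CPM against 65.3 CPM. Of 25 genes of the Dpp4 state, 4 were at least 2-fold higher in triple-marker cells and 2 lower, with a median ratio of 1.59.

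The triple-marker cells were graded along both limits of the rule. They were split by how many of the 5 Dpp4-set genes they held, and the 409 cells with 0, the 824 with 1 and the 899 with 2 had median depths of 6486, 7610.5 and 8675 UMIs. Depth therefore moves with this count, and its part in the gradients was not tested. Cxcl14 stood at 3707, 3305 and 2251 CPM in cells with 0, 1 and 2 of the genes, and at 886, 264 and 183 CPM in Dpp4-set cells with 3, 4 and 5. Smoc2 stood at 4126, 4558 and 4307 CPM and then at 2590, 1348 and 799 CPM. Hsd11b1 was nearly level within triple-marker cells at 295, 291 and 272 CPM and stood at 139, 58.2 and 29.9 CPM outside. Igfbp5 was at 298, 204 and 222 CPM within and at 653, 1311 and 2621 CPM outside. Anxa3 was at 100.5, 138 and 260 CPM within and at 469, 948 and 1446 CPM outside. Cells outside the set need none of the 3 markers, so the step of Smoc2 at the limit is set in part by the rule.

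Lpl level ordered the cells in a second way. Triple-marker cells with no Lpl (172), under 5 (543), 5 to 10 (698) and 10 to 20 (719) Lpl UMIs per 10000 had Cxcl14 at 818, 1389, 2816 and 4343 CPM. The 482 Lpl-high cells with 20 to 40 had it at 4459 CPM and the 83 with 40 or more at 3092 CPM, so Cxcl14 was highest near the limit. Hsd11b1 had the same shape, at 126, 221, 290 and 345 CPM within the set and 292 and 152 CPM beyond. Apoe stood at 329, 327, 726 and 1214 CPM within and at 3419 and 4827 CPM beyond. Thbs4 ran the other way, at 1232, 1044, 554 and 284 CPM within and 51.7 and 15.1 CPM beyond. C4b was at 30.3, 13.4, 65.4 and 76.9 CPM within and at 446 and 961 CPM beyond. The cells with no Lpl had a median of 4134.5 UMIs, against 7978 to 8204 UMIs in the other 3 groups within the set.

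**Figure D4:**
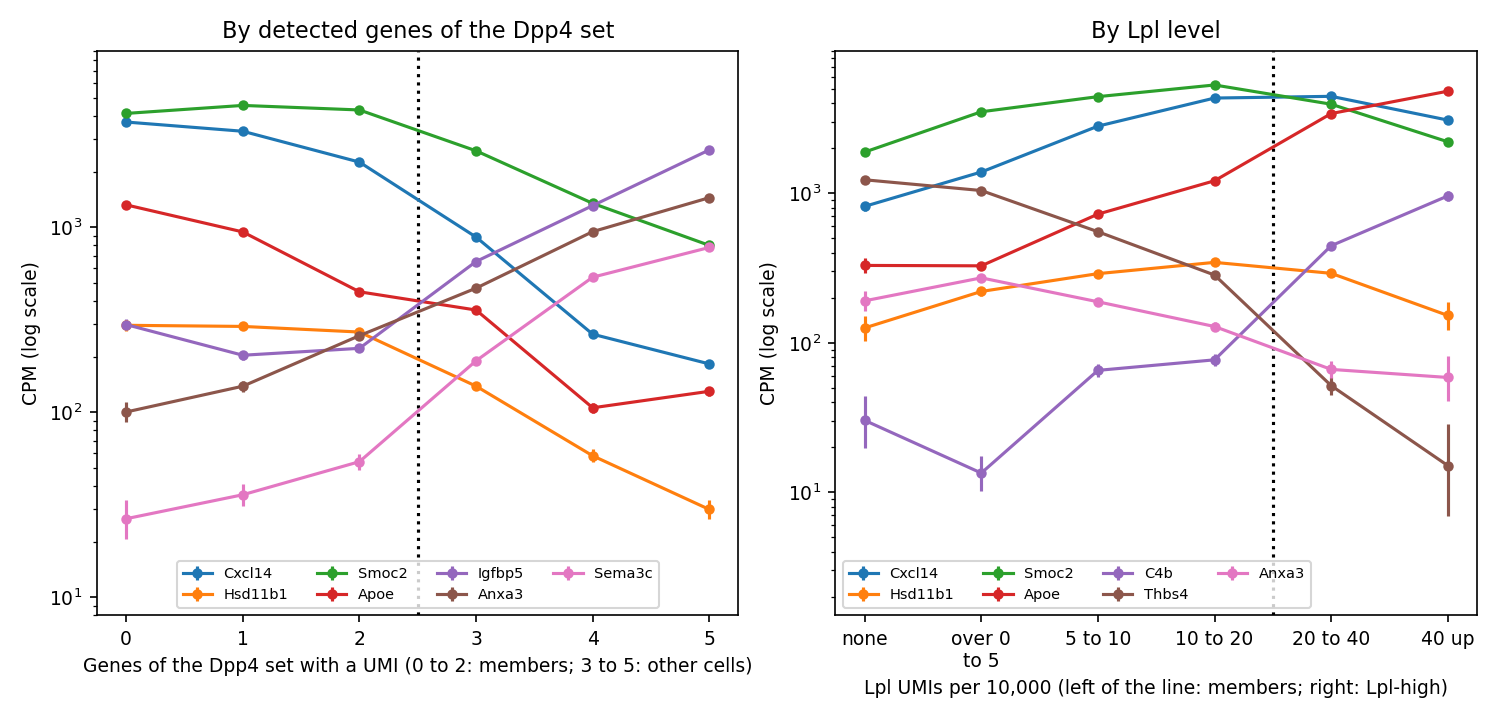
Levels as CPM on a log axis, with 95% Poisson intervals as bars, by the number of Dpp4-set genes with a UMI (left) and by Lpl UMIs per 10000 (right), with triple-marker cells left of each dotted line. Cxcl14 goes from 3707 to 183 CPM across the left panel, and Apoe goes from 329 to 4827 CPM across the right panel.

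The number of markers was graded too. Among cells with a Pdgfra UMI that met the limits on Rgs5, Lpl and the Dpp4 set, 83 had none of the 3 markers, 224 had 1, 532 had 2 and 1978 had all 3, with median depths of 3812, 5121, 6287 and 8069 UMIs. Hsd11b1 stood at 5.50, 18.3, 69.3 and 287 CPM in these groups and Bmp4 at 8.20, 26.7, 42.8 and 142 CPM. Cxcl14 stood at 521, 931, 1148 and 2943 CPM. Fmod ran the other way at 1181, 730, 93.6 and 40.7 CPM, and Apoe stood at 1305, 1597, 1994 and 777 CPM. Depth moves with the number of markers as well, and the mix of cell types may too. Of all 1580 marker-missing cells, with or without a Pdgfra UMI, 447 fell in cluster 7 and 342 in cluster 2 of the clustering below. Tendon genes led cluster 7, and C4b led cluster 2. The part of depth and of the mix in these values was not tested.

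When all kept muscle cells were clustered without the 10 genes of the rule, triple-marker cells did not form a cluster of their own. Of 16 clusters, cluster 1 held 997 of them, 46.8% of the set, and they were 66.9% of its 1490 cells. That cluster was led by genes that included Cxcl14, Nrxn2 and Hsd11b1, and also held 239 Lpl-high and 215 Dpp4-set cells. Cluster 0 held 521 triple-marker cells beside 1042 Dpp4-set cells, and was led by Aldh1a2, Pgf and Ret. Cluster 3, led by Clu, Hmcn1 and Prg4, held 257, cluster 2, led by C4b, Mmp3 and Gdf10, held 108, and cluster 10 held 49. Cluster 8 held 168, and at 75% of its 224 cells this was the highest share of any cluster. Cluster 4, with 766 cells, held 0 of them and cluster 5, with 748 cells, held 1.

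The triple-marker cells of these clusters differed among themselves. Cxcl14 stood at 4155 CPM in those of cluster 1, 772 CPM in those of cluster 0, 1028 CPM in cluster 3, 1950 CPM in cluster 2, 3034 CPM in cluster 8 and 10858 CPM in the 49 cells of cluster 10. Apoe ranged from 152 CPM in cluster 0 to 3533 CPM in cluster 10. C4b stood at 773 CPM in the cells of cluster 2 and at 35.3 CPM or less in the other 5 clusters. Mgp stood at 6108 CPM in the cells of cluster 3 and Cilp at 912 CPM. Ret stood at 118 CPM in cluster 0 and 101 CPM in cluster 1, against 12.5 and 11.6 CPM in clusters 2 and 3. Hmcn2 ranged from 381 CPM in cluster 2 to 1376 CPM in cluster 8. Cluster 8 was shallow, with a median of 3535.5 UMIs in its triple-marker cells and 4.85% of their UMIs from mitochondrial genes, and it held more of the nuclear transcript Malat1, at 70298 CPM against 34768 CPM in those of cluster 1.

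**Figure D5:**
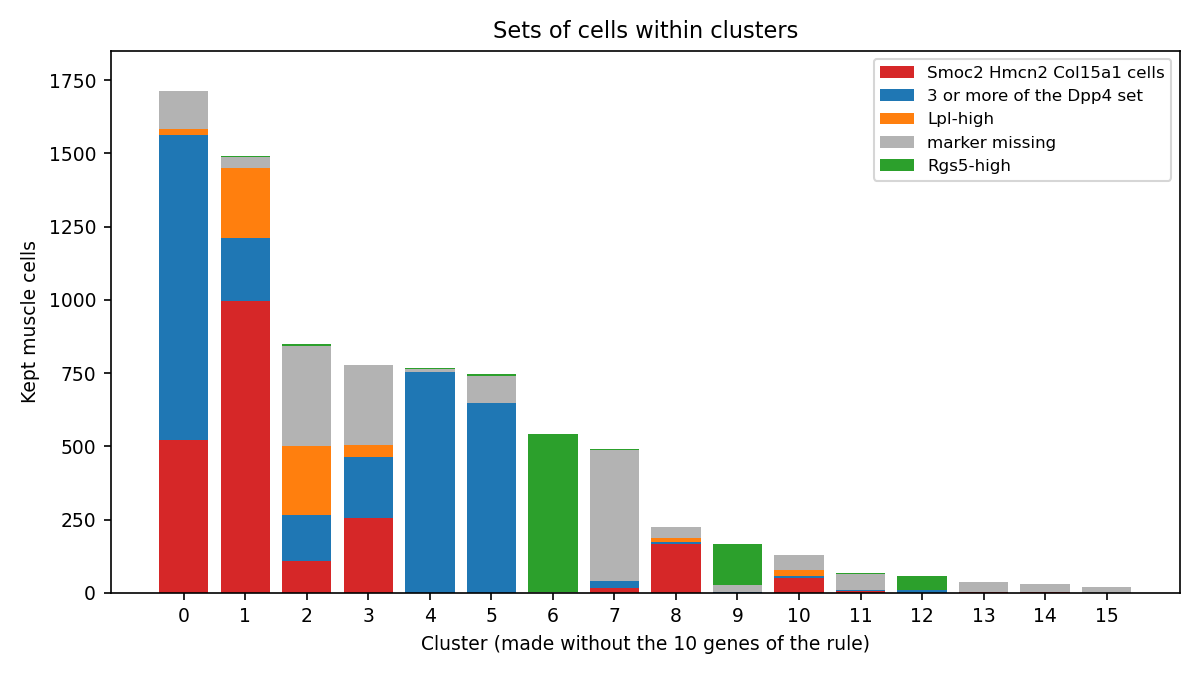
Number of kept muscle cells (bars, from 0) in each of 16 clusters made without the genes of the rule, split by colour into the 5 sets. Red triple-marker cells fill most of cluster 1 (997 cells) and lie beside Dpp4-set cells in cluster 0 (521 cells).

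Markers of other cell types were counted in the triple-marker cells, taking 3 or more detected markers of a list as the measure. None of the 2132 cells reached this for endothelial, haematopoietic, erythroid or adipocyte markers. Smooth muscle markers reached it in 49 cells, tenocyte markers in 40 (1.88%), glial markers in 7 (0.328%), perineurial markers in 10 (0.469%) and myogenic markers in 83 (3.89%). Summed over a list, endothelial markers stood at 83.2 CPM, haematopoietic markers at 5.24 CPM with 3 of 10 at 0, and adipocyte markers at 0.903 CPM with 3 of 6 at 0. Pericyte markers reached it in 857 cells (40.2%), against 15.99% of Dpp4-set, 54.2% of Lpl-high, 15.5% of marker-missing and 98.4% of Rgs5-high cells. This list holds genes that progenitors also use, such as Pdgfrb at 163 CPM and Steap4 at 202 CPM. Kcnj8 and Cox4i2 on it were at 1.93 and 0.542 CPM. Of 4 pericyte markers at 20 CPM or more, 3 were at least 2-fold higher than in Dpp4-set cells and 0 lower. Their median ratio was 2.74. Against Lpl-high cells 0 of 5 were at least 2-fold higher and 2 lower. The source of these differences was not tested. The 10 summed tenocyte markers, Thbs4 and Fmod among them, stood at 783 CPM in triple-marker cells, 97.7 CPM in Lpl-high cells and 10016 CPM in marker-missing cells, and their part in the Thbs4 and Fmod values was not tested.

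Heat-shock and immediate-early genes varied strongly among the cells. Hspa1a and Hspa1b, near-identical copies whose reads can be split between them and which are therefore summed, had quartiles of 9.09, 68.8 and 176 UMIs per 10000 in triple-marker cells. From the lowest to the highest of 4 equal groups on this sum, Fos stood at 764, 2250, 3203 and 4863 CPM. Cxcl14 stood at 3038, 2802, 2839 and 2848 CPM and Hsd11b1 at 299, 280, 263 and 293 CPM, so neither followed the heat-shock level. Igfbp5 stood at 299, 299, 232 and 85.0 CPM. The sum was at 11686 CPM in triple-marker cells, 8128 CPM in Dpp4-set cells and 7143 CPM in Lpl-high cells. Among cells at or below the median sum, an alternative chosen after the data were seen, 83 genes were at least 2-fold higher in triple-marker than in all other kept cells, and 52 of the 55 were among them.

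The same rule was applied to the sarcoma libraries, which it was not made on. It took 10 of 7433 kept cells in sarcoma 1 (0.135%), 15 of 8206 in sarcoma 2 (0.183%), 206 of 6949 in sarcoma 3 (2.96%) and 2 of 6824 in sarcoma 4 (0.0293%), so the sarcoma values rest mainly on sarcoma 3. Genotype, body site and disease state differ together from the muscle library and cannot be told apart. The cells taken in sarcomas 1 to 4 had medians of 20685, 24424, 21710.5 and 12783 UMIs, above the 7872.5 UMIs in muscle, and a deeper cell meets the demand for 1 UMI at a lower level. The part of depth in the differences below was not tested. Cxcl14 stood at 4305, 3940, 3102 and 9387 CPM in these cells of sarcomas 1 to 4, against 2876 CPM in muscle. Of the genes of the rule, Smoc2 stood at 622, 744, 887 and 782 CPM against 4371 CPM, and Hmcn2 at 106, 123, 82.2 and 156 CPM against 915 CPM. Bmp4 stood at 7.83, 7.54, 6.32 and 0 CPM against 139 CPM. Pi16 stood at 701, 930, 1111 and 1917 CPM against 344 CPM. Smarcb1 stood at 47.0, 47.7, 44.7 and 39.1 CPM against 92.6 CPM. Cdkn2a, a tumour suppressor gene whose UMIs exclude a cell from the test below, stood at 19.6, 0, 22.5 and 0 CPM against 0.120 CPM in muscle. Spp1, osteopontin, stood at 27.4, 11200, 366 and 39.1 CPM against 0.241 CPM. Of the cells taken, 3, 10, 100 and 1 in sarcomas 1 to 4 had Pdgfra and Smarcb1 transcripts and no Cdkn2a UMI. The 100 of sarcoma 3 had Cxcl14 at 4592 CPM, Bmp4 at 6.98 CPM, Pi16 at 1409 CPM and Spp1 at 327 CPM. The part of cells with Cdkn2a or Spp1 transcripts in the values of all cells taken was not tested. Smoc2, Hmcn2 and Pi16 belong to the rule, which met cells of different depth, so their levels are a description only. With 1 muscle library there is no replicate check of any of these differences, and sarcoma 4 rests on 2 cells.

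Within the sarcomas, cells with Pdgfra and Smarcb1 transcripts, no Cdkn2a UMI and the other limits of the rule were compared with and without all 3 markers. Only sarcoma 3 had 20 cells in each arm, as the design asked, so the test was made with sarcomas 2 and 3, which had at least 10. Their arms held 10 and 118 cells in sarcoma 2 and 100 and 1012 cells in sarcoma 3. With edgeR's quasi-likelihood test, library as a block and Benjamini-Hochberg adjustment at 0.05 over 10604 genes, of which 7 belong to the rule, 5 of 10597 genes outside the rule (0.0472%) were higher in cells with all 3 markers and 4 (0.0377%) lower. Tnxb, Sparcl1, Ltbp4, Tppp3 and Il11 were higher and Ereg, Reg1, Mmp13 and Gm12840 lower, and these 9 are named after their values were seen. Tnxb, tenascin X, was higher by 1.70 on the log2 scale (adjusted p = 0.00648, edgeR, or 0.0130 with the genes of the rule left out before adjustment), and Ereg, epiregulin, a ligand of the EGF receptor, was lower at -3.62 (adjusted p = 0.0246, edgeR, or 0.0286). The same counts, 5 and 4, passed either way. Cxcl14 was higher by 0.54 and Hsd11b1 by 0.38 on the log2 scale, with adjusted p of 0.622 and 1.00 in edgeR. At an unadjusted p under 0.05 the test gave 302 of the 10597 genes, fewer than chance alone would pass. Without the library block 0 genes passed in either direction, with 40 at an unadjusted p under 0.05 in edgeR, again fewer than chance. DESeq2 called 1 higher and 0 lower.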

How the data were processed

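Single-cell RNA was measured with the 10x Genomics 3′ v2 kit, per the labels, in 1 muscle and 4 sarcoma libraries of sorted cells. The deposited values are raw UMI counts per gene and barcode. Per the file headers the authors ran Cell Ranger 6.0.1, and per the submitters' processing notes the build was mm10. How barcodes were called as cells, and the annotation release, is not given in the sources used here. No muscle barcode held fewer than 500 UMIs.

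The members and lists were chosen with earlier results of these data known. Counts were summed over the cells of a set and scaled to CPM, with exact Poisson intervals of levels, exact conditional intervals of ratios and Clopper-Pearson intervals of shares, all at 95%. A gene was counted at a ratio of 2 with 20 CPM or more in the higher set. Named genes were the 10 of the rule, the 15 highest and lowest ratios against all other cells and the 10 highest and lowest against each of the 2 other sets (at 50 CPM or more), up to 4 members of each of 28 lists, Smarcb1, Hic1 and tdTomato. List members named beyond these were picked after their values were seen. Clusters used 2000 variable genes, 30 components, 15 neighbours and leidenalg 0.10.2 at resolution 1. Doublets were not called, and leaving out the 5% of cells with most UMIs was an alternative. The sarcoma arms were tested with edgeR 4.0.16 and, as an alternative, DESeq2 1.42.0 in R 4.3.3. That fit has 2 libraries. No label ties each sarcoma to an animal of its own, so p-values there reflect only how far these libraries scatter, which may be technical. The ratio step was checked on simulated counts. Other steps used Python 3.11.15, numpy 2.4.6, scipy 1.17.1 and pandas 2.3.3. Results of some named genes are not reported here.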

Additional observations from a re-analysis of the deposited data

Results flagged for a closer look

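In sarcoma 3 the rule took 2.96% of kept cells (95% interval 2.58 to 3.39), against 0.135%, 0.183% and 0.0293% in sarcomas 1, 2 and 4. The gap to the nearest library is 0.948 of the whole range, above 0.829, the 95% critical value of Dixon's test for 4 values. The test was run on 10 sets of 4 sarcoma values, and chance passes about 1 in 20 such sets.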

How the results depend on the processing

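The number of triple-marker cells, 2132, became 1917 with at least 1000 genes and at most 5% mitochondrial UMIs, 1621 with every cell thinned to 2000 UMIs before the rule and 1752 with at least 2 UMIs of each marker. Against all other kept cells, the 55 genes higher became 32 at a minimum of 50 CPM, 1283 with no minimum and 83 in cells of low heat-shock level. The 209 genes lower became 136 against Pdgfra cells of low Rgs5, 105 at 50 CPM and 3995 with no minimum. Against Dpp4-set cells, thinning moved 149 higher to 313 and 181 lower to 332, with 144 and 179 of the original genes among them. Under thinning the ratio of Cxcl14 against Dpp4-set cells was 21.5. The ratio of Thbs4 against all other kept cells was 0.546, and 1.84 against Pdgfra cells of low Rgs5, where Ctgf also turned, from 0.919 to 1.82. The cause was not tested. Against Lpl-high cells, leaving out the triple-marker cells of cluster 7 gave 34 genes higher and 100 lower, with 32 of 34 and 98 of 99 shared. For the sarcoma arms, the 5 genes higher and 4 lower became 32 and 49 with no filter and 7 and 13 with library size scaling. They became 0 and 0 with no replicate block (40 genes at unadjusted p under 0.05 in edgeR) and 1 and 0 in DESeq2 (111 genes). Both of these unadjusted counts are fewer than chance alone would pass. Leaving out either of the 2 libraries leaves no residual degrees of freedom, so that alternative was not run. No paired analysis was possible because the muscle comparisons come from 1 library.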
